A study of Mus musculus with 12 samples.

Results

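The genes examined here are 10 transcripts that distinguish states of hepatic stellate cells and other mural cells in the mouse liver: Lrat, Reln, Colec11 and Ecm1 as markers of vitamin A-storing stellate cells, Des and Rgs5 as markers of stellate cells and pericytes, and Acta2, Tagln, Myh11 and Cnn1 as contractile markers. They were matched by symbol, and all 10 were found among the 31663 genes counted in one experiment and among the 25285 genes counted in the other. RNA-seq was performed on whole livers of C57BL/6 mice, with 12 libraries in 4 groups of 3 mice. In the first experiment, female mice were 8 weeks old when they were placed for 28 days on the CDE regimen, a choline-deficient diet with 0.15% DL-ethionine in the drinking water, which injures hepatocytes and causes fibrosis. CflarFF mice carried Cflar alleles with loxP sites around exon 1 and no Cre recombinase, and CflarLKO mice carried these alleles together with Cre driven by the albumin promoter, which acts in hepatocytes. Cflar encodes cFLIP, an inhibitor of caspase 8, and some cFLIP remains in the livers of these mice. In the second experiment, mice were 8 weeks old and fed the normal diet. Fgf18Tg mice carried an Fgf18 cDNA in the Rosa26 locus, switched on in hepatocytes by albumin promoter-driven Cre, and NonTg mice were the controls. Fgf18 encodes fibroblast growth factor 18. The sex of these mice was not given in the labels.

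Stellate cells lie between the hepatocytes and the sinusoidal endothelium and store most of the vitamin A of the liver as retinyl esters. On injury they can become activated, lose the vitamin A droplets, deposit collagen and take on contractile filament proteins, which are also present in the smooth muscle cells of portal vessels. Lrat encodes the enzyme that esterifies retinol for storage, Reln the secreted glycoprotein reelin, Colec11 a collectin that binds sugars on microbes, and Ecm1 a secreted matrix glycoprotein that hepatocytes also make. Des encodes the intermediate filament protein desmin, and Rgs5 a regulator of G protein signalling found in pericytes. Acta2 encodes alpha-smooth muscle actin, Tagln the actin-binding protein transgelin, Myh11 the heavy chain of smooth muscle myosin and Cnn1 the actin-binding protein calponin 1.

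Many smooth muscle genes carry CArG boxes, the elements bound by serum response factor, and RefSeq promoters (GRCm38.p6, 250 bases before to 50 bases after the start) were matched for 8 of the 10 members, all but Tagln and Myh11. None of the 8 windows held a strict CArG box, which was present in 1.63% of 32851 promoters. When 1 base of the A and T core was allowed to be G or C, 9.98% of all promoters and 2 of the 8 members, Acta2 and Lrat, held a match. The Acta2 window held matches beginning 84 and 34 bases before the start, and the Lrat window 1 match beginning 223 bases before it. A match in a window is a description of its letters. The promoters of Acta2 and Lrat are shown for the contrast between contraction and vitamin A storage. That of Des is shown as a marker called higher in both experiments. In Fgf18Tg, however, that call was lost in 6 of 16 alternative settings. The filter on low counts also favoured higher values of Des there. The promoter of Ecm1 is shown as that of the member whose change differed between the experiments. These promoters lie at chr19:34255324-34255623 for Acta2, chr3:82903925-82904224 for Lrat, chr1:75360042-75360341 for Des and chr3:95739520-95739819 for Ecm1 (GRCm38.p6), on the plus strand for Des and on the minus strand for the other genes. The sequences read 5′ to 3′ along the gene, and capitals mark the matches.
Acta2: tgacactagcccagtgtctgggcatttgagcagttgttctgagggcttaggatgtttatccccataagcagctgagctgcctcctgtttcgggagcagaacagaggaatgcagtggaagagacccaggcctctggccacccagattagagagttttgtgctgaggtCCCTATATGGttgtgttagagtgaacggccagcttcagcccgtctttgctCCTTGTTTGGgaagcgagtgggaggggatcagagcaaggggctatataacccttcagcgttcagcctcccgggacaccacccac
Lrat: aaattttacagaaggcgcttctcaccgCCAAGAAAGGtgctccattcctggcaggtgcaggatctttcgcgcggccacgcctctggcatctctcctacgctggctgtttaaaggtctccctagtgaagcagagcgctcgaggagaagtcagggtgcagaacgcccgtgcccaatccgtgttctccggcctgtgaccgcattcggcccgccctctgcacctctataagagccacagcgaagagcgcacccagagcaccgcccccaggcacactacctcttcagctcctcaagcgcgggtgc
Des: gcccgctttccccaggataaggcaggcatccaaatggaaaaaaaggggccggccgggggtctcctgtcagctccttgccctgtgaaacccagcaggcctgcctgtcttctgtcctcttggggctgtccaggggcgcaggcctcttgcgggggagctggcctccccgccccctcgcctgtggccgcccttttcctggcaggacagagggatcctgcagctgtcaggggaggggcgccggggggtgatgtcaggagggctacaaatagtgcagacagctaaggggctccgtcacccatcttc
Ecm1: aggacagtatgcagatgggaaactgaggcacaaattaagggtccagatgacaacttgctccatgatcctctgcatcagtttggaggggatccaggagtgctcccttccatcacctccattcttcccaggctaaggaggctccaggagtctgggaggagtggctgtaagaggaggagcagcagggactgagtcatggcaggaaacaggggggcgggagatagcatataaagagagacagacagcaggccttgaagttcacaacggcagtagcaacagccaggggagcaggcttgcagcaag

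Total counts were 6487178 to 10414883 per library on the CDE diet and 1136680 to 3089872 on the normal diet. Levels are given as TMM-normalized counts, that is, counts scaled to the mean effective library size of the same experiment, so they are comparable between libraries of an experiment but not between genes or experiments. TMM scaling factors were 0.82 to 0.91 in CflarFF and 1.14 to 1.22 in CflarLKO, and 0.85 to 0.90 in NonTg and 1.11 to 1.19 in Fgf18Tg. Leaving these factors out shifted all genes: their median log2 change was 0.46 in CflarLKO and 0.42 in Fgf18Tg, against -0.0016 and 0.0186 with the factors. In that setting 6649 genes were called higher and 647 lower in CflarLKO, in place of 2652 and 2240, and 3632 higher and 344 lower in Fgf18Tg, in place of 1169 and 1275. The summed level of 7 hepatocyte markers was 438173 to 1162753 in CflarFF and 248599 to 329526 in CflarLKO, and within CflarFF it was lowest in replicate 2, which was also the control highest in 5 cholangiocyte markers. Cflar itself was lower in CflarLKO, at 462 ± 14.1 against 638 ± 67.7 (SD, n = 3; log2 fold change -0.47, adjusted p = 0.0235), but the change was -0.01 without TMM factors. The call was also lost without CflarFF replicate 3 (adjusted p = 0.056) or without CflarLKO replicate 1 (0.0819), 2 (0.0915) or 3 (0.0617). Cflar was lower in Fgf18Tg as well, in mice whose Cflar alleles were not targeted (log2 fold change -0.43, adjusted p = 0.0277; -0.03 without TMM factors), and the effects were not shown to differ (log2 difference 0.05, adjusted p = 0.937). The Fgf18Tg call of Cflar was lost with DESeq2 (adjusted p = 0.136). It was also lost without NonTg replicate 3 (0.0841) or Fgf18Tg replicate 1 (0.0723), 2 (0.0541) or 3 (0.0769). Fgf18 was at 5747, 5151 and 4287 in Fgf18Tg against 206, 83.3 and 102 in NonTg. Its raw counts were 9564, 5725 and 2803 in Fgf18Tg and 191, 63 and 90 in NonTg. On the CDE diet its raw counts were 6, 7 and 3 in CflarLKO against 0, 0 and 1 in CflarFF. The NonTg controls thus had more Fgf18 counts than the CDE-fed livers despite lower totals, and the source of these reads was not tested.

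In CDE-fed livers, the stellate and pericyte markers and the contractile markers Acta2 and Tagln were higher in CflarLKO than in CflarFF, whereas the markers of vitamin A-storing cells did not move as one. Of the 9 members tested, Des, Rgs5, Acta2 and Tagln were higher at an adjusted p under 0.05, Ecm1 was lower, and Lrat, Reln, Colec11 and Myh11 did not pass the test. Among all 17036 genes tested, 15.6% were called higher and 13.1% lower. The groups did not overlap, with CflarLKO higher, for 4 of the 9 members (23.8% of all genes tested), and with CflarLKO lower for 1 (21.0% of all genes tested). The median log2 fold change of the 9 members was 0.80. The members were chosen with earlier results of these data known, so the shares of all genes are given for scale only. Since the RNA came from whole liver, more cells of a type and more RNA per cell cannot be told apart.

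Lrat was measured at 140, 224 and 207 in CflarFF and at 448, 287 and 220 in CflarLKO. CflarLKO replicate 1 lay far above the other libraries, and replicate 3 lay below the highest control. On the log2 scale the change was 0.75 ± 0.27 (SE, adjusted p = 0.0697), and it was 0.41 (adjusted p = 0.239) without CflarLKO replicate 1 and 0.95 (adjusted p = 0.0256) without CflarLKO replicate 3. DESeq2 also placed Lrat past the threshold (0.74, adjusted p = 0.0393). Reln was at 133, 308 and 216 in CflarFF and at 591, 287 and 262 in CflarLKO. Again CflarLKO replicate 1 stood alone, and the other CflarLKO libraries fell within the range of the controls. For Reln the log2 fold change was 0.80 ± 0.43 (adjusted p = 0.213) and 0.32 without that library.

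Colec11 changed little, with levels of 203, 273 and 262 in CflarFF and 380, 296 and 255 in CflarLKO. The groups overlapped, and the log2 fold change was 0.34 ± 0.18 (adjusted p = 0.179). Ecm1 went the other way, at 819, 953 and 805 in CflarFF and 513, 409 and 437 in CflarLKO. Every CflarLKO library was below every control. Its log2 fold change was -0.92 ± 0.15 (adjusted p = 0.00124), and Ecm1 passed the test in the same direction in each of 16 alternative settings. The change was smallest without TMM factors, at -0.47 (adjusted p = 0.0420). Ecm1 was thus the 1 member called lower. In the same livers 6 of 7 hepatocyte markers were called lower, against 13.1% of all genes tested. Of these, the calls of Serpina1c and Cps1 were lost without TMM factors (adjusted p = 0.453 and 0.271) and without some single libraries. The call of Alb was lost without CflarLKO replicate 1 (adjusted p = 0.0511). In Fgf18Tg, 3 of the 7 hepatocyte markers were called lower and 1 higher, against 11.7% and 10.7% of all genes tested. The log2 fold change of Ecm1 there was 0.61 (adjusted p = 0.066). The part of hepatocytes in the result was not tested.

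Des was at 36.6, 49.6 and 36.9 in CflarFF and at 150, 104 and 95.0 in CflarLKO. All CflarLKO libraries exceeded all controls, with a log2 fold change of 1.51 ± 0.24 (adjusted p = 0.00124). Rgs5 was at 200, 358 and 340 in CflarFF and at 655, 566 and 533 in CflarLKO. The groups were again separate, and the log2 fold change was 0.97 ± 0.20 (adjusted p = 0.00582). Both genes kept their direction and passed the test at 0.05 in all alternative settings.

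Acta2 was at 49.95, 35.4 and 40.4 in CflarFF and at 134, 62.6 and 93.8 in CflarLKO. The CflarLKO libraries lay above the controls but were spread widely, and replicate 1 was the highest. Its log2 fold change was 1.21 ± 0.29 (adjusted p = 0.0102), and it was 0.88 (adjusted p = 0.0599) without CflarLKO replicate 1. Other actin genes are close in sequence to Acta2 and may share reads with it. Acta1 had raw counts of 51, 26 and 21 in CflarFF and 52, 30 and 39 in CflarLKO, and Acta2 had 45, 30 and 34 in CflarFF and 192, 72 and 78 in CflarLKO.

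Tagln was at 71.0, 69.6 and 94.0 in CflarFF and at 290, 123 and 165 in CflarLKO. Here too the groups were separate and CflarLKO replicate 1 was the highest. The corresponding log2 fold change was 1.31 ± 0.31 (adjusted p = 0.0126), and the adjusted p was 0.0546 without CflarFF replicate 1. In the GENCODE M21 annotation, 62.4% of the exonic bases of Tagln are shared with the antisense gene Gm48529, and reads of the pair cannot be told apart without strand information. Gm48529 had raw counts of 23, 17 and 16 in CflarFF and 48, 42 and 27 in CflarLKO, whereas Tagln had 64, 59 and 79 in CflarFF and 414, 141 and 137 in CflarLKO.

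The 2 markers of mature smooth muscle gave no call. Myh11 was at 28.9, 11.8 and 22.6 in CflarFF and at 18.2, 5.22 and 15.6 in CflarLKO. The groups overlapped, with a log2 fold change of -0.69 ± 0.47 (adjusted p = 0.298). Myh11 passed the filter on low counts with all 3 libraries over its cutoff in CflarFF only, which itself favours lower values in CflarLKO. Cnn1 had raw counts of 3, 3 and 0 in CflarFF and 3, 0 and 1 in CflarLKO, too few to be tested. A difference in Cnn1 was not detectable at this depth, since the ratio of summed scaled counts was 0.51 with an exact 95% interval of 0.11 to 2.13, which covers counting error only.

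**Figure D1:**
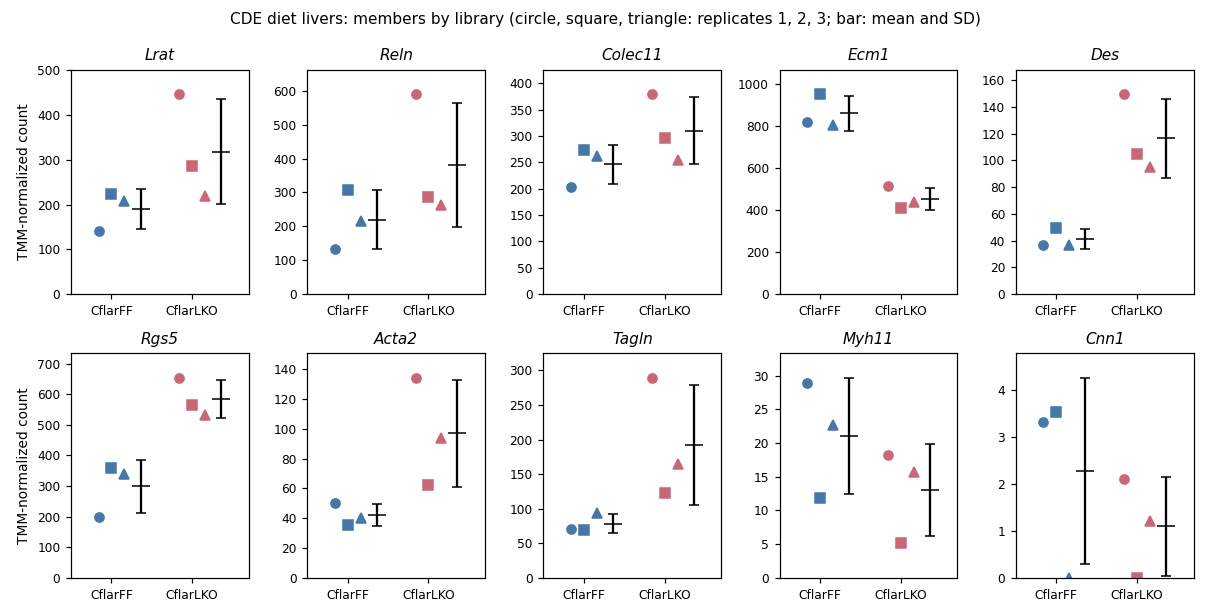
TMM-normalized counts of the 10 members in CDE-fed livers, 1 panel per gene with its own axis from 0, points for the 3 CflarFF and 3 CflarLKO libraries and a bar for mean and SD. Ecm1 falls from 859 to 453 on average, Des rises from 41.0 to 116, and CflarLKO replicate 1 is the highest library for Lrat, Reln, Colec11, Des, Rgs5, Acta2 and Tagln.

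In normal diet livers, Reln and Colec11, 2 of the 4 markers of vitamin A-storing stellate cells, were higher in Fgf18Tg than in NonTg, together with Des and Tagln. Of the 7 members tested, Reln, Colec11, Des and Tagln were higher, none was lower, and Lrat, Ecm1 and Rgs5 did not pass the test, while Acta2, Myh11 and Cnn1 had too few counts to be tested. Among all 10909 genes tested, 10.7% were called higher and 11.7% lower. The Fgf18Tg libraries lay above all NonTg libraries for 5 of the 7 members, compared with 19.4% of all genes tested, and for 0 members they lay below, compared with 19.3%. The median log2 fold change of the 7 members was 1.54. Lrat, Des and Tagln passed the filter on low counts with all 3 libraries over its cutoff in Fgf18Tg only. The choice of tested members thus itself favours higher values in Fgf18Tg. The counts and median of the members, and the calls of Des and Tagln, are therefore no support for a direction.

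Reln showed the clearest separation, at 24.8, 25.1 and 27.1 in NonTg and 137, 169 and 106 in Fgf18Tg. The controls were nearly equal, and the lowest Fgf18Tg library was far above them. The resulting log2 fold change was 2.43 ± 0.20 (adjusted p = 4.82e-07). Colec11 was at 23.7, 31.7 and 50.9 in NonTg and at 75.7, 108 and 136 in Fgf18Tg. These groups were also separate, and the log2 fold change was 1.54 ± 0.28 (adjusted p = 0.00218). Both genes passed the test at 0.05 in all 16 alternative settings.

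Lrat was at 24.8, 25.1 and 11.3 in NonTg and at 24.0, 56.7 and 44.4 in Fgf18Tg. Fgf18Tg replicate 1 was at the level of the controls, so the groups overlapped. The log2 fold change was 0.98 ± 0.37 (adjusted p = 0.0812), and it was 1.33 (adjusted p = 0.00487) without Fgf18Tg replicate 1, 0.62 (adjusted p = 0.278) without Fgf18Tg replicate 2 and 0.65 (adjusted p = 0.239) without NonTg replicate 3. Ecm1 was at 105, 74.0 and 131 in NonTg and at 128, 150 and 210 in Fgf18Tg. Only Fgf18Tg replicate 1 fell within the range of the controls. For Ecm1 the log2 fold change was 0.61 ± 0.22 (adjusted p = 0.066), with an adjusted p of 0.0221 without Fgf18Tg replicate 1 and 0.0255 without NonTg replicate 3. It was 0.40 (adjusted p = 0.186) without NonTg replicate 2 and 0.41 (adjusted p = 0.165) without Fgf18Tg replicate 3.

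Des was at 10.8, 5.29 and 11.3 in NonTg and at 29.4, 18.9 and 12.2 in Fgf18Tg. The groups did not overlap, although Fgf18Tg replicate 3 was barely above the highest control. The log2 fold change was 1.23 ± 0.38 (adjusted p = 0.0282), and the call was lost with DESeq2 (adjusted p = 0.109) and limma (0.080). It was also lost without NonTg replicate 1 (0.0532), NonTg replicate 2 (0.110) or Fgf18Tg replicate 1 (0.232).

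Rgs5 was at 46.3, 26.4 and 46.3 in NonTg and at 81.1, 86.4 and 214 in Fgf18Tg. All Fgf18Tg libraries exceeded the controls, and replicate 3 was far above the other two. The log2 fold change was 1.56 ± 0.51 (adjusted p = 0.085). Without Fgf18Tg replicate 3 it was 1.05 (adjusted p = 0.00258), and without Fgf18Tg replicate 1 it was 1.83 (adjusted p = 0.0394). DESeq2 (adjusted p = 0.019) and limma (adjusted p = 0.0213) also placed Rgs5 past the threshold.

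The contractile members were near the detection limit on the normal diet. Tagln had raw counts of 9, 1 and 2 in NonTg and 28, 17 and 9 in Fgf18Tg, or normalized levels of 9.69, 1.32 and 2.26 and of 16.8, 15.3 and 13.8. The Fgf18Tg libraries were close to each other and above the controls, of which replicate 1 was the highest. For Tagln the log2 fold change was 1.72 ± 0.48 (adjusted p = 0.0159). Without NonTg replicate 1 it was 2.99 (adjusted p = 0.00204), and the adjusted p was 0.0705, 0.0818 and 0.0595 without NonTg replicate 2, NonTg replicate 3 or Fgf18Tg replicate 1. The call was also lost in the fit of all 12 libraries (adjusted p = 0.0711), and Tagln was not tested with a filter of at least 10 counts in 3 libraries. Acta2 had raw counts of 3, 2 and 4 in NonTg and 6, 14 and 7 in Fgf18Tg, and after scaling Fgf18Tg replicate 1 fell within the controls. The ratio of summed scaled counts was 2.25, with an exact 95% interval of 1.03 to 5.44 for counting error only. With no filter on low counts, the fitted log2 fold change of Acta2 was 1.16 ± 0.59 (adjusted p = 0.249). Acta1, which may share reads with Acta2, had more raw counts in every library, at 26, 31 and 17 in NonTg and 48, 30 and 21 in Fgf18Tg.

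Myh11 had raw counts of 0, 2 and 2 in NonTg and 6, 5 and 4 in Fgf18Tg. The scaled levels of the Fgf18Tg libraries were all above those of the controls, but the ratio of 2.81 had an interval of 0.90 to 11.6. Cnn1 was at 0 counts in every NonTg library and at 0, 2 and 1 in Fgf18Tg, so no difference was detectable at this depth.

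**Figure D2:**
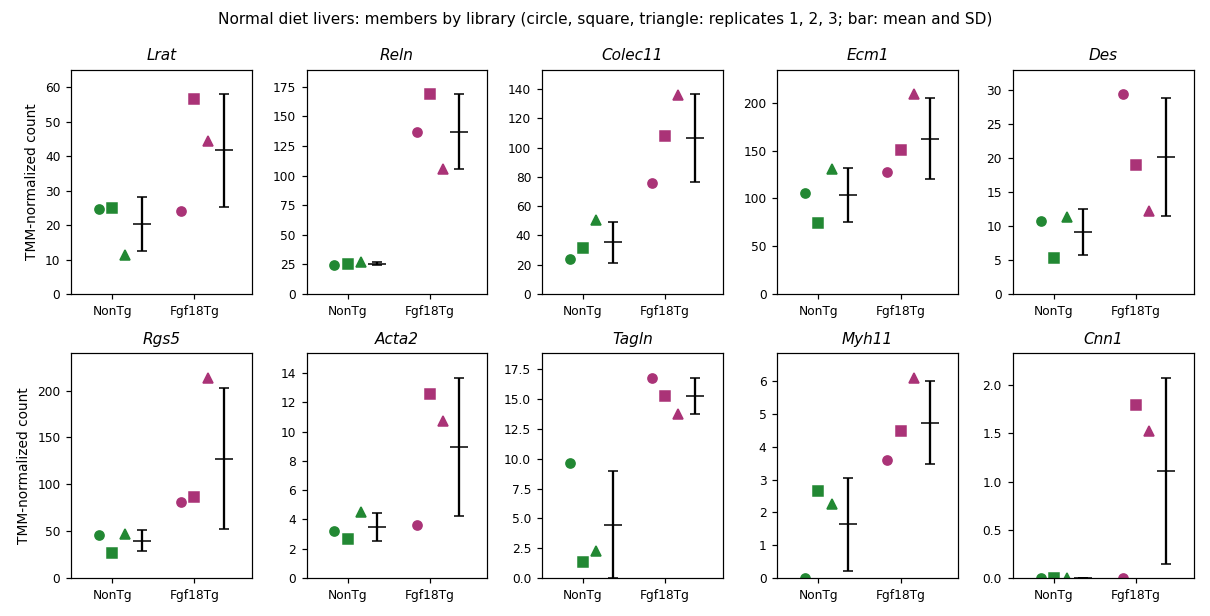
TMM-normalized counts of the 10 members in normal diet livers, 1 panel per gene with its own axis from 0, points for the 3 NonTg and 3 Fgf18Tg libraries and a bar for mean and SD, whose lower arm stops at 0. Reln rises from 25.7 to 137 on average, Lrat and Ecm1 overlap, and Acta2, Myh11 and Cnn1 rest on few counts.

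The 2 experiments share no libraries, and they differ in genotype, diet, age, sequencing depth and, as far as given, sex, which cannot be told apart in a comparison between them. In a fit of all 12 libraries over 13956 shared genes, the effects differed for 1 member, Ecm1, compared with 3.10% of all genes tested. The effect on Ecm1 was lower in CflarLKO than in Fgf18Tg by a log2 difference of -1.45 ± 0.26 (SE, adjusted p = 0.00425), with CflarLKO below CflarFF in all 3 libraries. Ecm1 passed this test in all 14 alternative settings, with adjusted p between 0.00203 and 0.0138. The difference was -1.54 ± 0.60 for Reln (adjusted p = 0.224) and -1.12 ± 0.35 for Colec11 (adjusted p = 0.101). Without CflarLKO replicate 1 the difference for Reln was -2.09 (adjusted p = 0.0175), and without NonTg replicate 3 that for Colec11 was -1.49 (adjusted p = 0.0368). For Myh11 it was -2.09 ± 0.99 (adjusted p = 0.292), on the few counts given above.

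The effects on Lrat, Des, Rgs5, Acta2 and Tagln were not shown to differ between the experiments. Their log2 differences were -0.15 ± 0.57 for Lrat, 0.37 ± 0.48 for Des, -0.53 ± 0.54 for Rgs5, 0.08 ± 0.76 for Acta2 and -0.35 ± 0.70 for Tagln.

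**Figure D3:**
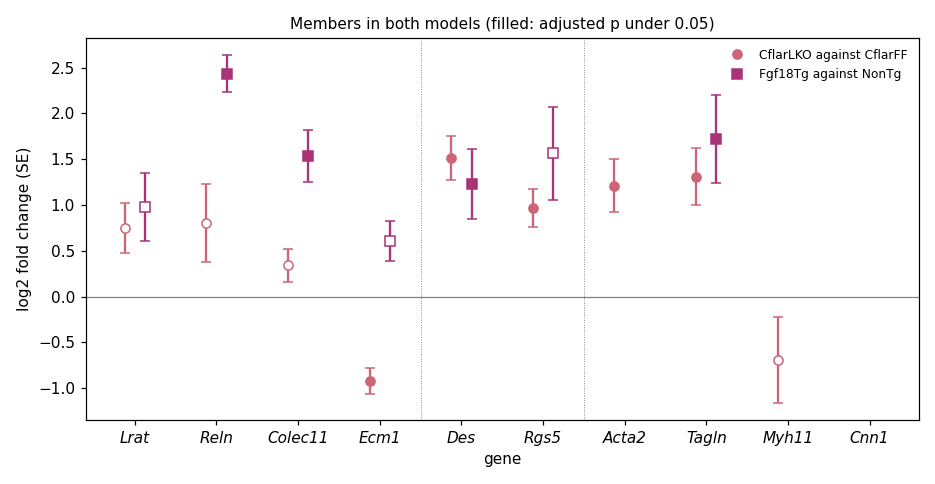
Log2 fold changes with SE for the members tested, with circles for CflarLKO against CflarFF and squares for Fgf18Tg against NonTg, filled where the adjusted p was under 0.05. Dotted lines separate the vitamin A-storing, stellate and pericyte, and contractile members, and Ecm1 is the gene at -0.92 in one experiment and 0.61 in the other.

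A class index was formed for each library as the mean, over the members of a class, of the log2 level (with 1 added) minus the mean of the controls. In CflarLKO the index of the 4 vitamin A-storing members was 0.67, 0.07 and -0.08, that of Des and Rgs5 was 1.52, 1.15 and 1.04, and that of the 4 contractile members was 0.91, -0.49 and 0.40. Des and Rgs5 were thus raised in all 3 CflarLKO libraries, whereas 2 of the 3 vitamin A-storing indices lay within the CflarFF range of -0.34 to 0.29. This index joins Ecm1, with a log2 fold change of -0.92, to Lrat (0.75), Reln (0.80) and Colec11 (0.34), which did not pass the test. A value near 0 is therefore not a lack of change in each member, and an index without Ecm1 was not formed. For the contractile members, 2 CflarLKO libraries lay above and 1 below the CflarFF range of -0.25 to 0.34. The library below was CflarLKO replicate 2, where Acta2 and Tagln were above every control (62.6 and 123). Myh11 had 6 raw counts and Cnn1 had 0 in that library, so its low index rests on few counts. The contractile index was 0.28 ± 0.71 (SD, n = 3) with all 4 members and 1.17 with Acta2 and Tagln alone, an alternative chosen after the data had been seen. In Fgf18Tg the vitamin A-storing index was 1.04, 1.60 and 1.55, that of Des and Rgs5 1.35, 1.09 and 1.45, and the contractile index 0.78, 1.57 and 1.54. All 3 indices were above those of every NonTg library, but the contractile index rests on few counts and was 0.68 on average when 5 rather than 1 was added to each level.

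The balance between contraction and vitamin A storage was also described by the log2 ratio of Acta2 to Lrat raw counts within a library, which needs no scaling between libraries. It was -1.49, -2.66 and -2.36 in CflarFF and -1.74, -2.20 and -1.23 in CflarLKO. The groups overlapped, and the difference of 0.45 had an exact two-sided permutation p = 0.4. In NonTg the ratio was -2.94, -3.25 and -1.32, on Acta2 counts of 3, 2 and 4. In Fgf18Tg it was -2.74, -2.17 and -2.05, on Acta2 counts of 6, 14 and 7. These counts were too few for Acta2 to be tested, so the ratios on the normal diet are imprecise. The difference was 0.18 (exact permutation p = 0.8). Both adjusted p-values over the 2 comparisons were 0.8, and 3 against 3 libraries cannot give a p below 0.1.

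**Figure D4:**
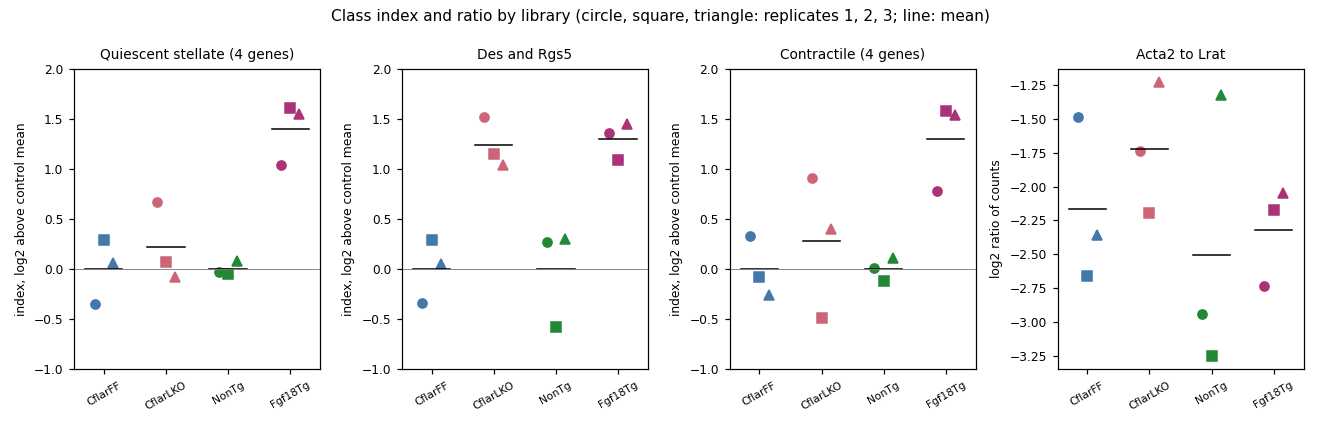
Class index of each library (log2 above the control mean) for the vitamin A-storing members, Des with Rgs5, and the contractile members, and at the right the log2 ratio of Acta2 to Lrat counts, with points for libraries and lines for group means. Des with Rgs5 averages 1.24 in CflarLKO and 1.30 in Fgf18Tg, whereas the vitamin A-storing index averages 0.22 in CflarLKO and 1.40 in Fgf18Tg. The vitamin A-storing index includes Ecm1, which was lower in CflarLKO.

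Other genes of the same cell states gave a wider view, and their counts of calls stand against 15.6% higher and 13.1% lower of all genes tested in CflarLKO and 10.7% and 11.7% in Fgf18Tg. These lists and those below were chosen with earlier results of these data known. The shares are therefore given for scale and are no support for a direction. Of 21 further genes of quiescent stellate cells, 8 were called higher and 4 lower among the 19 tested in CflarLKO, with a median log2 fold change of 0.83, and 10 were called higher and 0 lower among the 15 tested in Fgf18Tg, with a median of 1.91. Of these 15, 9 had all 3 libraries over the cutoff of the filter in Fgf18Tg only, Adamtsl2, Cygb and Tcf21 among them, so their count and median are no support for a direction. Adamtsl2, which encodes a secreted matrix protein, was at 55.5, 153 and 52.3 in CflarFF and at 561, 655 and 528 in CflarLKO. It was at 2.15, 3.96 and 5.65 in NonTg and at 91.3, 77.4 and 106 in Fgf18Tg. The groups were far apart in both experiments, with log2 fold changes of 2.74 ± 0.40 (adjusted p = 0.00345; 3.43 without CflarFF replicate 2) and 4.49 ± 0.30 (adjusted p = 5.74e-08). Cygb, which encodes the oxygen-binding globin cytoglobin, had log2 fold changes of 2.41 ± 0.22 (adjusted p = 9.04e-05) and 3.13 ± 0.26 (adjusted p = 4.09e-07). Tcf21, a transcription factor gene of mesenchymal cells, had 2.44 ± 0.26 (adjusted p = 2.09e-04) and 3.30 ± 0.32 (adjusted p = 2.04e-06). Thus some genes assigned to the quiescent state were higher in CflarLKO, where Lrat, Reln and Colec11 did not pass the test. Adamtsl2, Cygb and Tcf21 were named as the largest called changes of a mixed list, in which 4 genes were lower and 7 were not called.

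The 4 genes of this list that were lower in CflarLKO were Angptl6, Vipr1, Fcna and Pparg, named here after their values had been seen. Angptl6, which encodes a secreted angiopoietin-like protein, was at 153, 140 and 159 in CflarFF and 43.4, 42.6 and 46.9 in CflarLKO, a log2 fold change of -1.77 ± 0.17 (adjusted p = 1.20e-04). Pparg, a nuclear receptor gene of lipid storage, changed by -0.64 ± 0.16 on that scale (adjusted p = 0.0115), Fcna, which encodes a ficolin, -0.74 ± 0.15 (adjusted p = 0.00403) and Vipr1, a receptor of vasoactive intestinal peptide, -0.78 ± 0.23 (adjusted p = 0.0281). Without TMM factors the last 3 calls were lost, at -0.18 for Pparg (adjusted p = 0.394), -0.29 for Fcna (0.159) and -0.32 for Vipr1 (0.33). The call of Vipr1 was also lost without CflarFF replicate 2 (0.0557) or 3 (0.0839) or CflarLKO replicate 2 (0.0928) or 3 (0.0779), and that of Pparg without CflarLKO replicate 2 (0.0526). In Fgf18Tg, Angptl6 was at 17.4, 21.6 and 24.5 against 31.2, 27.8 and 35.0 in NonTg (log2 fold change -0.62 ± 0.25, adjusted p = 0.0796).

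Beside the same background shares (15.6% of all genes higher in CflarLKO, 10.7% in Fgf18Tg), of 16 further smooth muscle genes, 5 of 12 tested were called higher in CflarLKO (median log2 fold change 0.69) and 4 of 7 in Fgf18Tg (median 0.92), with 0 lower in either. In CflarLKO 3 of those tested, and in Fgf18Tg 1, Smtn, had all 3 libraries over the cutoff of the filter in that group only. Smtn, which encodes smoothelin, was at 33.3, 43.7 and 47.6 in CflarFF and at 151, 128 and 143 in CflarLKO. It was at 1.08, 9.25 and 4.52 in NonTg and at 36.1, 25.2 and 24.5 in Fgf18Tg. The groups were separate in both experiments, with log2 fold changes of 1.76 ± 0.20 (adjusted p = 2.21e-04) and 2.63 ± 0.43 (adjusted p = 3.27e-04; 3.35 without NonTg replicate 2). Flna, the gene of the actin crosslinker filamin A, had log2 fold changes of 1.86 ± 0.17 (adjusted p = 8.89e-05) and 2.22 ± 0.20 (adjusted p = 1.13e-06). The most highly counted gene of the list, Cald1, which encodes the actin-binding protein caldesmon 1, was at 3319 ± 322 in CflarFF and 3588 ± 325 in CflarLKO (SD, n = 3; log2 fold change 0.11, adjusted p = 0.641). Of 10 further pericyte and mural genes, 4 of 7 tested were called higher in CflarLKO, 2 of the 7 having passed the filter with all 3 libraries over its cutoff in CflarLKO only. In Fgf18Tg only 3 of the 9 genes in the table passed the filter, and all were called higher, but Kcnj8, a potassium channel gene with counts of 6, 5 and 2 in NonTg and 37, 26 and 33 in Fgf18Tg, could pass through Fgf18Tg alone. Among the 3, Pdgfrb, which encodes a receptor of platelet-derived growth factor, had log2 fold changes of 2.35 ± 0.25 (adjusted p = 2.18e-04) and 2.46 ± 0.25 (adjusted p = 3.45e-06).

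Of 12 fibrogenic genes of activated stellate cells, 11 were called higher and 1 lower in CflarLKO, with a median log2 fold change of 2.61, and 7 of 8 tested were called higher in Fgf18Tg, with a median of 2.23, against 15.6% and 10.7% of all genes called higher. Of the genes tested, 2 in CflarLKO and 1 in Fgf18Tg passed the filter with all 3 libraries over its cutoff in that group only. The list was chosen with earlier results of these data known, so its counts are no support for a direction. Col3a1, a fibrillar collagen gene, had log2 fold changes of 2.11 ± 0.19 (adjusted p = 8.87e-05) and 2.15 ± 0.19 (adjusted p = 2.05e-06). The gene called lower was Postn, the gene of the matrix protein periostin (-0.82 ± 0.18, adjusted p = 0.00721), named after its value had been seen, and this call was lost without TMM factors (-0.36, adjusted p = 0.167).

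Markers of other cell types were summed beside the members, and their counts of calls stand against the same shares of all genes, 15.6% higher and 13.1% lower in CflarLKO and 10.7% and 11.7% in Fgf18Tg. These lists, too, were chosen with earlier results of these data known. All 6 portal fibroblast markers tested were called higher in CflarLKO, and their summed level, over 8 genes, was 188 to 283 in CflarFF and 1028 to 1087 in CflarLKO. In Fgf18Tg 1 of 3 tested was called higher, with sums of 29.4 to 46.3 in NonTg and 58.9 to 112 in Fgf18Tg. The called gene, Eln, passed the filter with all 3 libraries over its cutoff in Fgf18Tg only, so its call is no support for a direction. The 6 mesothelial markers summed to 26.2 to 43.7 in CflarFF and 101 to 142 in CflarLKO, with 2 of 3 tested called higher, and to 2.64 to 4.30 in NonTg and 1.53 to 13.2 in Fgf18Tg, where 0 could be tested. All 3 mesothelial and 2 of the portal fibroblast markers tested in CflarLKO passed the filter with every library over its cutoff in CflarLKO only. Cholangiocyte markers summed to 184 to 581 in CflarFF and 1086 to 1325 in CflarLKO, with 4 of 5 called higher, and to 14.0 to 17.0 in NonTg and 24.5 to 34.9 in Fgf18Tg. Of the 4 called in CflarLKO, Cldn7 passed the filter with every library over its cutoff in CflarLKO only. The calls of Krt19 and Cldn7 were lost without some single libraries, such as CflarLKO replicate 1 (adjusted p = 0.0951 and 0.0608). Only 1 cholangiocyte marker, Epcam, passed the filter on the normal diet, with counts of 0, 3 and 3 in NonTg and 22, 14 and 10 in Fgf18Tg, and it could pass through the Fgf18Tg libraries alone. Of the liver endothelial markers, 0 of 7 were called in CflarLKO and 2 of 6 were lower in Fgf18Tg, and of the macrophage markers 2 of 6 were higher in CflarLKO and 0 of 5 were called in Fgf18Tg. The endothelial calls, of Kdr and Clec4g, were lost without TMM factors (adjusted p = 0.191 and 0.0545). The part of these cell types in the changes of the members was not tested.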

How the data were processed

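Raw read counts per gene, as the authors deposited them, and normalized signal values, which the authors deposited beside them as counts divided by 1 TCC-GUI factor per library, were read from 1 table per experiment. Per the labels and methods, polyA RNA of whole liver was amplified, sequenced on an Illumina NovaSeq instrument and mapped to GRCm39 with Bowtie2; the counting tool and annotation are not given in the sources used here. Libraries were grouped by their labels, 3 mice per group. Genes were kept with filterByExpr (minimum count 10, minimum total 15), scaled with TMM and tested with edgeR 4.0.16 (quasi-likelihood, robust) in R 4.3.3 within each experiment, with Benjamini-Hochberg adjustment over all genes tested and a threshold of 0.05. The difference between experiments was a contrast in a fit of all 12 libraries. DESeq2 1.42.0, limma 3.58.1 (log2 of the deposited normalized values plus 1) and other scalings, filters and subsets of libraries were alternatives. The scripts were tested on simulated data. Intervals for ratios of counts are exact binomial and cover counting error only, since PCR copies are not independent molecules. Promoters came from RefSeq for GRCm38.p6, a build other than that of the counts. The members and lists were chosen with earlier results of these data known. Named genes were all members, from each further list the gene with the highest mean count and up to 3 with the largest significant change, and the targeted genes; not every gene that this rule selects is printed. Exons shared with neighbours were taken from GENCODE M21.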

Additional observations from a re-analysis of the deposited data

Results flagged for a closer look

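Ecm1 was the member whose effects differed between the experiments by a test of the difference itself: the log2 fold change in CflarLKO minus that in Fgf18Tg was -1.45 ± 0.26 (SE, edgeR adjusted p = 0.00425). Ecm1 was lower in all 3 CflarLKO libraries than in any CflarFF library, and in Fgf18Tg 2 of 3 libraries were above all NonTg libraries.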

How the results depend on the processing

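No member reversed its direction among called results in any setting. At an adjusted p under 0.01, 2 members were higher in CflarLKO and 2 in Fgf18Tg, in place of 4 each. In Fgf18Tg, 7 members were called higher without TMM factors, 7 with no filter on low counts and 7 with the replicate block, in which same-numbered libraries were paired; their deviations correlated at -0.11 to 0.0843, so the numbers were not taken as pairs. The block left the counts in CflarLKO at 4 higher and 1 lower. Leaving out 1 library at a time gave 3 to 5 members higher in CflarLKO and 2 to 6 in Fgf18Tg (2 without NonTg replicate 2), with 1 lower in CflarLKO and 0 in Fgf18Tg each time, and 1 to 2 members whose effects differed (2 without CflarLKO replicate 1 or NonTg replicate 3). The difference in the log2 ratio of Acta2 to Lrat was 0.20 to 0.79 in CflarLKO and -0.19 to 0.77 in Fgf18Tg, with no test. The mean contractile index was 1.17 in CflarLKO with Acta2 and Tagln alone and 0.68 in Fgf18Tg with a pseudocount of 5. DESeq2 called 726 genes higher and 796 lower in Fgf18Tg, against 1169 and 1275. Without 1 library, genes called lower in CflarLKO ranged from 1235 to 2616, against 2240. Where the cause of such a change was not stated, it was not tested. Acta2, Myh11 and Cnn1 had 14 counts or fewer in every normal diet library, whose totals were 1136680 to 3089872.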
